A study of Mus musculus with 20 samples.

Results

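The genes described here are 10 regulators of polycomb marks and DNA methylation: *Ezh2*, *Ezh1*, *Eed*, *Suz12*, *Kdm6b*, *Bmi1*, *Asxl1*, *Dnmt1*, *Dnmt3a* and *Tet2*. They were chosen by their symbols, and all 10 were found among the 39017 genes of the deposited table. RNA was sequenced from the bone marrow of irradiated wild-type mice (C57Bl/6 x 129Sv/Jae F1) transplanted with T-cell acute lymphoblastic leukemias (T-ALLs). The leukemias had arisen by insertional mutagenesis with the MOL4070LTR retrovirus in *Mx1-Cre* mice or in wild-type littermates. *Mx1-Cre* is not restricted to T cells. The labels do not give the genotype of a leukemia, so levels were not compared by genotype. The 9 leukemias 20M, 2M, 5C, 73A, 73M, 78A, 8633, JW14 and JW81 were each represented by 2 libraries, and each leukemia is a single primary tumor passaged in recipients. The column name of one library carries the letters DEX and that of the other VEH; the labels list no treatment and the text of the study does not explain the letters, so the libraries are called by those letters only.

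Polycomb repressive complex 2 (PRC2) methylates lysine 27 of histone H3 through EZH2 or EZH1, with EED and SUZ12 as obligate partners. PRC1, which contains BMI1 or a related protein, ubiquitinates histone H2A, and the PR-DUB complex of ASXL proteins and BAP1 removes that ubiquitin. KDM6B and KDM6A remove methyl groups from lysine 27. DNMT3A places DNA methylation, DNMT1 copies it after replication, and TET enzymes oxidize it. In human T-ALL, PRC2 genes and *DNMT3A* are known targets of inactivating mutations, and *Tet2* loss is best known from myeloid disease.

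The 18 libraries held 8226528 to 201222288 counts (median 24451898). Levels are in FPKM, the count per kb of merged exon and per M counts of the library, and a floor of 3 counts over 1 kb of exon was worth 0.0149 to 0.365 FPKM, depending on the library. The lowest count of any of the 10 genes in any library was 71, for *Kdm6b*. Ribosomal RNA genes other than the mitochondrial ones reached 21.6 to 64.05 counts per M counts in 5 libraries, against 0.00497 or less in the other 13. These 5 were 1 VEH library (5C) and 4 DEX libraries (20M, JW14, JW81 and 73M). The 12 T lineage genes tested as markers had a mean log2(FPKM + 1) of 4.36 to 5.83 over all 18 libraries. The 9 B lineage genes summed to 0.545 to 29.8 FPKM, highest in the VEH library of 73M, and 3 of them, *Pax5*, *Vpreb1* and *Igll1*, were under 1 FPKM in all 18. Myeloid, neutrophil and erythroid transcripts were also present. In such bulk marrow, fewer cells of a type and less RNA per cell cannot be told apart.

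All 10 genes passed the filter of a mean of 1 FPKM, as did 11339 genes in all. *Dnmt1* had the highest level, 87.1 ± 16.05 FPKM (SD, n = 9 leukemias), above 96.02% of the genes tested. *Suz12* followed at 54.2 ± 5.80, *Ezh2* at 31.1 ± 4.60, *Asxl1* at 22.8 ± 6.50 and *Bmi1* at 22.3 ± 4.52 FPKM. *Eed* was at 12.5 ± 3.03, *Dnmt3a* at 8.51 ± 2.83, *Ezh1* at 5.65 ± 1.25 and *Kdm6b* at 3.64 ± 1.78 FPKM. *Tet2* was the lowest at 1.80 ± 1.17 FPKM, above 11.5% of the genes tested. The edgeR test of differences between leukemias, with Benjamini-Hochberg adjustment over all genes tested, called 9 of the 10 genes. It called 82.5% of all genes tested, so a difference between leukemias was the usual case. The exception was *Ezh2*.

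**Figure D1:**
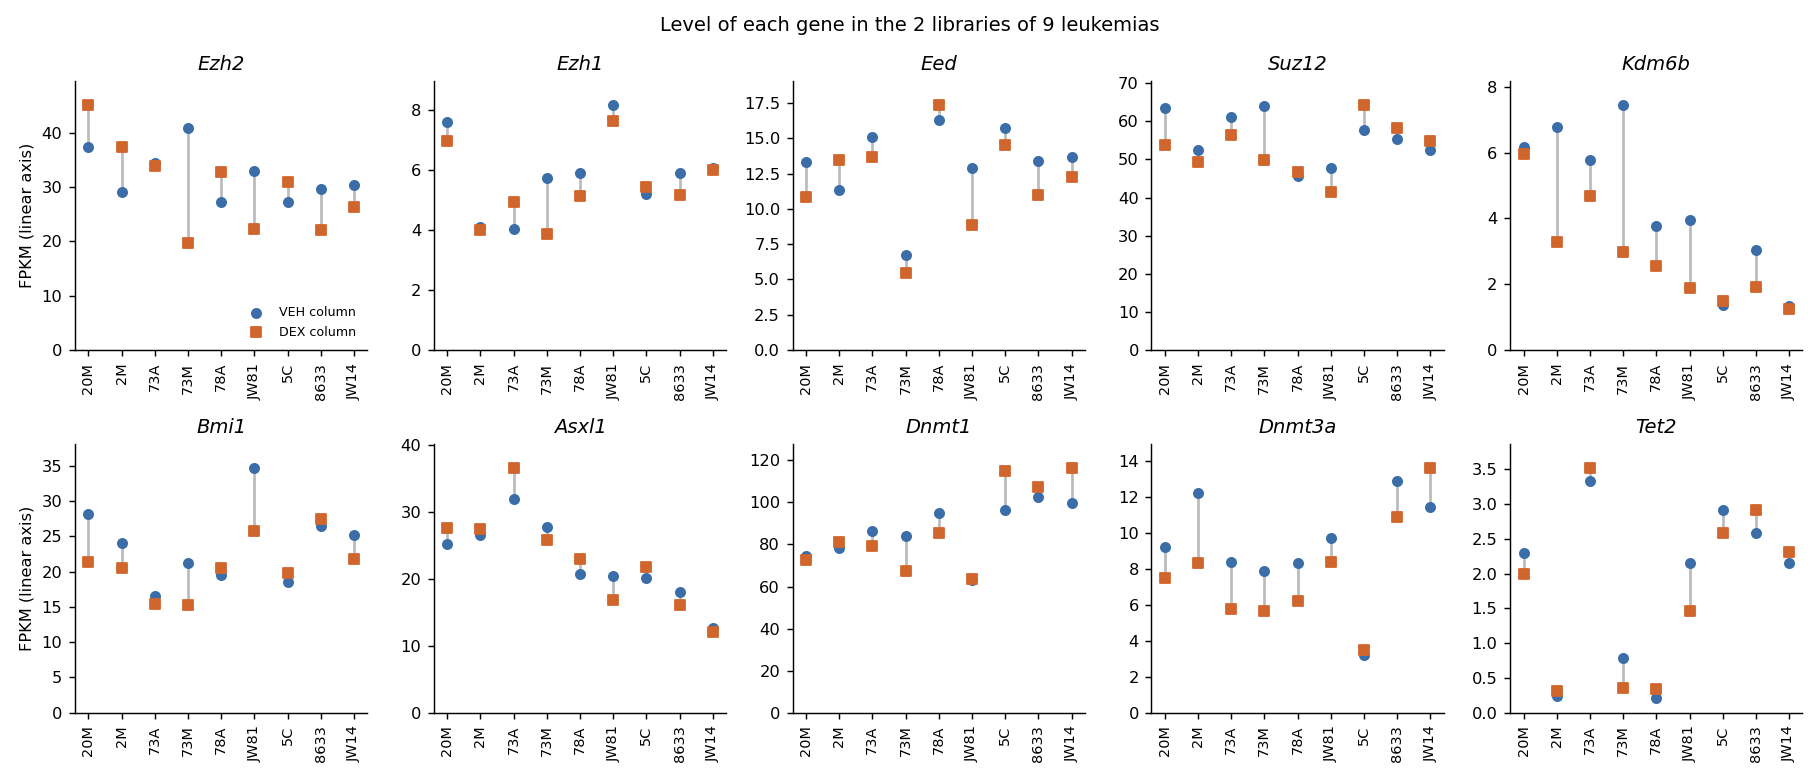
Level of each gene in FPKM (linear axes from 0) in the VEH library (blue circles) and the DEX library (orange squares) of each of 9 leukemias, with a grey line joining the 2 libraries of a leukemia. *Tet2* was under 1 FPKM in both libraries of 2M, 73M and 78A, and *Kdm6b* was lower in the DEX library in 8 of 9 leukemias.

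*Ezh2* (ENSMUSG00000029687, chromosome 6 of GRCm38, 47530139 to 47595341, minus strand) encodes the main histone methyltransferase of dividing cells. Its VEH libraries ranged from 27.2 to 40.8 FPKM with a median of 30.3, and its DEX libraries from 19.8 to 45.04 with a median of 30.9. The medians were close, but the DEX libraries ran both below and above the range of the VEH libraries. Their SD was 8.25 FPKM, against 4.67 for the VEH libraries. The DEX library was lower in 5 of 9 leukemias. The highest leukemia, 20M at 41.2 FPKM, exceeded the lowest, 8633 at 25.8 FPKM, by 1.59-fold. Only 20M stood apart from its neighbour in the order of leukemias, by the rule that the ranges of the 2 libraries do not overlap. The 2 libraries of a leukemia differed as much as leukemias did, with an SD within leukemias of 0.33 and between leukemias of 0.21 on the log2 scale. In 73M the 2 libraries were at 40.8 (VEH) and 19.8 FPKM (DEX). Markers of other cells shifted between the same 2 libraries: the summed level went from 769 (VEH) to 102 FPKM (DEX) for erythroid genes, from 29.8 to 5.57 for B lineage genes and from 2278 to 851 for neutrophil genes. The mean log2(FPKM + 1) of 16 proliferation genes went from 5.93 to 5.55. Their part in the *Ezh2* values was not tested. The test of differences between leukemias gave F = 0.926 and an adjusted p of 0.537 (edgeR), and only 1.51% of the genes tested had a lower F. The adjusted p was 0.201 without 73M.

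*Ezh1* (ENSMUSG00000006920, chromosome 11, 101191115 to 101226463, minus strand) encodes the alternative enzyme, which is known for its presence in resting cells. It was at 4.03 to 8.14 FPKM in the VEH libraries (median 5.90) and at 3.87 to 7.62 in the DEX libraries (median 5.15). JW81 was the highest leukemia at 7.88 FPKM, followed by 20M at 7.27 and JW14 at 6.02, and each stood apart from the next. The 6 others, from 5.52 in 8633 down to 4.04 FPKM in 2M, were not apart from their neighbours. The adjusted p for differences between leukemias was 0.000663 (edgeR).

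The balance of the 2 enzymes was the same way round in all 18 libraries. *Ezh2* exceeded *Ezh1* per length by 2.94-fold in the DEX library of JW81 to 9.39-fold in the DEX library of 2M. On the scale of log2(FPKM + 1), averaged over the 2 libraries of a leukemia, the difference was 2.27 ± 0.33 (SD, n = 9 leukemias), from 1.67 in JW81 to 2.75 in 2M. It was above 0 in 9 of 9 leukemias (two-sided exact sign-flip test, p = 0.00391, which is the lowest value this design can give). Adjusted over the 2 tests of these genes by the Benjamini-Hochberg method, the exact test gave p = 0.00781. The DEX minus VEH change of *Ezh1* minus that of *Ezh2* did not pass the test, at 0.04 ± 0.38 (SD, n = 9) on the same scale with 5 of 9 leukemias above 0 (exact sign-flip test, p = 0.742, adjusted p = 0.742). It ran from -0.43 in 78A to 0.54 in 73M, and its mean turned to -0.08 in the 4 leukemias with no library with ribosomal RNA counts.

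*Suz12* (ENSMUSG00000017548, chromosome 11, 79993106 to 80034123, plus strand) encodes the subunit that holds the core of PRC2 together. It had the smallest spread of the 10 genes, 1.37-fold from JW81 at 44.5 to 5C at 61.0 FPKM. Its VEH libraries were at 45.6 to 64.0 FPKM (median 55.3) and its DEX libraries at 41.4 to 64.1 (median 53.8). The adjusted p for differences between leukemias was 0.0496 (edgeR). That call was lost in 11 of 12 alternatives, with adjusted p up to 0.205 when no filter was applied, and it held only without 73M (0.0257).

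*Eed* (ENSMUSG00000030619, chromosome 7, 89954654 to 89980983, minus strand) encodes the subunit that binds methylated lysine 27. It was at 6.71 to 16.3 FPKM in the VEH libraries (median 13.4) and at 5.45 to 17.3 in the DEX libraries (median 12.2). Both libraries of 73M, at 6.71 (VEH) and 5.45 FPKM (DEX), lay below all 16 other libraries, of which the lowest was the DEX library of JW81 at 8.84. 73M was at 6.08 FPKM, against 10.8 in JW81 to 16.8 in 78A. Its neighbours on chromosome 7 were also low there. Of the 8 other tested genes within 1 Mb of *Eed*, 6 had their lowest level of the 9 leukemias in 73M, against 8.02% of all genes tested. Their log2 ratio to the median of the 8 other leukemias, with 0.1 FPKM added to both, had a median of -0.79, against -1.05 for *Eed* itself and a median of -0.04 over the 792 tested genes of chromosome 7. *Crebzf* was at 13.5 FPKM in 73M and at 23.7 to 38.4 in the others, and *Hikeshi*, which lies next to *Eed*, was at 1.70 against 2.67 to 4.66. These neighbours were named after their values were seen, and the copy number of the region was not analysed here.

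The order *Suz12*, *Ezh2*, *Eed*, *Ezh1* held per length in 18 of 18 libraries. The step from *Suz12* to *Ezh2* was 1.19-fold to 2.64-fold, that from *Ezh2* to *Eed* 1.67-fold to 6.08-fold, and that from *Eed* to *Ezh1* 1.16-fold to 3.75-fold. The largest step from *Ezh2* to *Eed* was in the VEH library of 73M. None of the 4 genes passed the threshold between DEX and VEH columns.

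*Bmi1* (ENSMUSG00000026739, chromosome 2, 18677018 to 18686629, plus strand) encodes a PRC1 subunit known for self-renewal of blood stem cells. It was at 16.6 to 34.7 FPKM in the VEH libraries (median 24.1) and at 15.3 to 27.5 in the DEX libraries (median 20.5). JW81 was highest at 30.2 and 73A lowest at 16.0 FPKM. Leukemias overlapped along most of the order, with 1 of 8 neighbouring pairs apart. *Bmi1* exceeded its relative *Pcgf2* in 18 of 18 libraries, by 15.0-fold to 261-fold.

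*Asxl1* (ENSMUSG00000042548, chromosome 2, 153345829 to 153404007, plus strand) encodes the partner that activates BAP1. Its SD was 0.44 between leukemias and 0.11 within leukemias on the log2 scale, and 3 of 8 neighbouring pairs were apart, as for *Eed* and *Ezh1*. 73A was highest at 31.8 (VEH) and 36.5 FPKM (DEX), apart from all others. 2M at 26.6 (VEH) and 27.4 FPKM (DEX), 73M at 27.7 and 25.7 and 20M at 25.2 and 27.6 followed and did not differ beyond their spread. JW14 was lowest at 12.7 (VEH) and 12.0 FPKM (DEX), also apart from all others, which gave a range of 2.76-fold. *Asxl1* exceeded *Asxl2* in 18 of 18 libraries, by 1.72-fold to 5.13-fold.

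*Dnmt1* (ENSMUSG00000004099, chromosome 9, 20907209 to 20959888, minus strand), the maintenance methyltransferase, was at 63.1 to 103 FPKM in the VEH libraries (median 86.3) and at 63.6 to 116.3 in the DEX libraries (median 81.1). The 9 leukemias fell into a higher set of JW14, 5C and 8633, at 105 to 108 FPKM, and a graded set from 78A at 90.2 down to JW81 at 63.4 FPKM. 8633 was apart from 78A, and JW81 was apart from 20M. Levels of *Uhrf1*, whose product brings DNMT1 to newly replicated DNA, exceeded those of *Dnmt1* in 13 of 18 libraries. The 5 exceptions were both libraries of 8633 and of JW14 and the DEX library of 5C, of the 3 leukemias with the most *Dnmt1*.

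*Dnmt3a* (ENSMUSG00000020661, chromosome 12, 3806007 to 3914443, plus strand) encodes the de novo methyltransferase that is recurrently mutated in leukemia. It was at 3.22 to 12.9 FPKM in the VEH libraries (median 9.22) and at 3.50 to 13.6 in the DEX libraries (median 7.50). JW14 was highest at 12.5 and 8633 next at 11.9 FPKM. The leukemia 5C was lowest at 3.36 FPKM and apart from all others, of which 73M was the lowest at 6.78. *Dnmt1* exceeded *Dnmt3a* in every library, by 6.40-fold in the VEH library of 2M to 32.9-fold in the DEX library of 5C. *Dnmt3a* exceeded *Dnmt3b* in 16 of 18 libraries, and both exceptions were those of 5C. The region of *Dnmt3a* was not low as a whole in 5C: the 15 other tested genes within 1 Mb had a median log2 ratio of -0.08 against the other leukemias, while *Dnmt3a* was at -1.35. Of these 15, 4 were lowest in 5C (14.4% of all genes tested were), namely *Efr3b*, *Asxl2*, *Rab10* and *Itsn2*, named after their values were seen. *Asxl2*, a PR-DUB gene, was at 4.23 FPKM in 5C and at 6.81 to 11.7 in the others.

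*Tet2* (ENSMUSG00000040943, chromosome 3, 133463679 to 133545139, minus strand) encodes a dioxygenase that starts the removal of DNA methylation. It had the largest range of the 10 genes, 12.6-fold. In 6 leukemias it was at 1.81 (JW81) to 3.42 FPKM (73A). In the other 3 it was under 1 FPKM in both libraries: 2M at 0.236 (VEH) and 0.315 (DEX), 78A at 0.206 and 0.337, and 73M at 0.790 and 0.349 FPKM. Each of these 6 libraries lay below the lowest of the other 12, the DEX library of JW81 at 1.47 FPKM. The lowest count behind a *Tet2* value was 84, so the low values were well above the floor of 3 counts. The test of differences between leukemias gave F = 36.2, and 88.0% of the genes tested had a lower F. Genes around *Tet2* were near their usual level: the 6 other tested genes within 1 Mb had a median log2 ratio of -0.16 in 2M, 0.02 in 73M and -0.07 in 78A, where *Tet2* was at -2.61, -1.77 and -2.62.

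*Tet3*, another TET gene, exceeded *Tet2* in 18 of 18 libraries, and was at 4.50 (JW14) to 7.92 FPKM (73M) in the 9 leukemias. *Tet1* exceeded *Tet2* in 14 of 18 libraries, the exceptions being those of 5C and JW81. In JW81, *Tet1* was at 8 counts in the VEH library and at 3 in the DEX library, a mean of 0.0148 FPKM, against 0.944 (5C) to 8.81 FPKM (73M) elsewhere. *Uhrf2*, a relative of *Uhrf1*, was at 0.208 FPKM in JW81 and 0.286 in 2M, against 2.59 to 10.9 in the 7 other leukemias. *Tdg*, which excises oxidized methylcytosine, was at 1.37 FPKM in JW81 against 8.97 to 13.05 elsewhere. Its counts are uncertain, as reads of near-identical copies can be divided among them. Of the other tested genes within 1 Mb, 5 of 15 around *Tet1*, 5 of 12 around *Tdg* and 1 of 12 around *Uhrf2* were lowest in JW81. Of all genes tested, 14.5% were. The median log2 ratios of these neighbours were -0.33, -0.17 and 0.17, against -5.71, -2.89 and -4.54 for the 3 genes. Those around *Tdg* ran from -3.84 to 1.06. The low values of *Tet1*, *Uhrf2* and *Tdg*, too, were picked after they were seen.

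**Figure D2:**
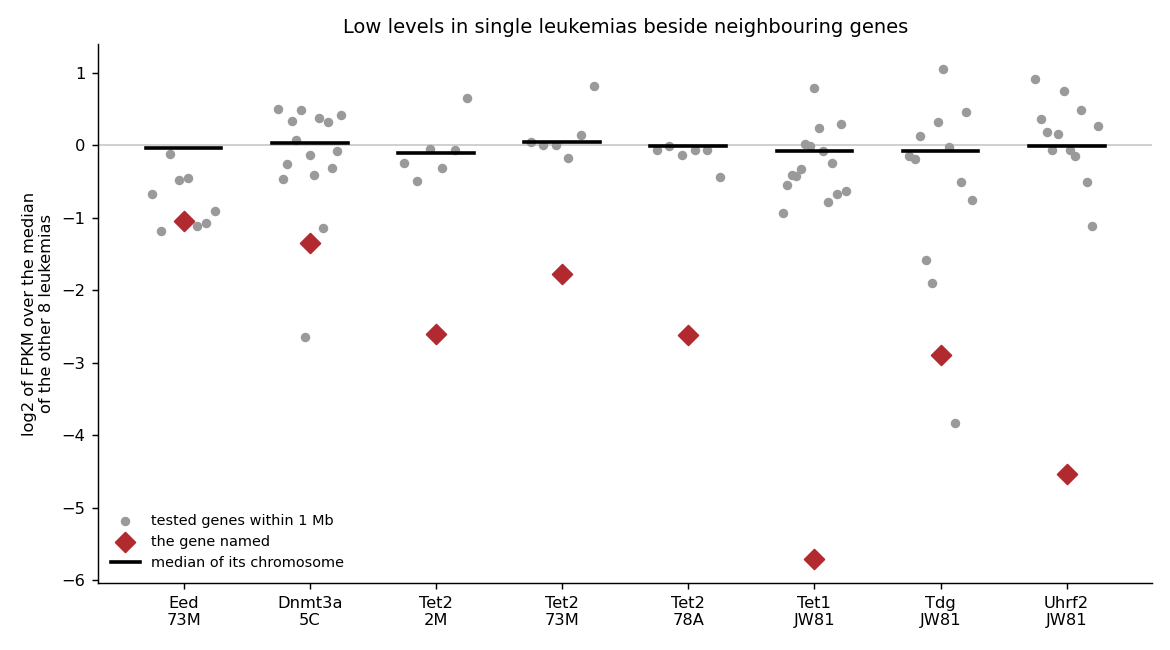
Log2 ratio of the level in 1 leukemia to the median of the 8 other leukemias, for a gene named on the x axis (red diamonds), for the other tested genes within 1 Mb of it (grey points, spread sideways for legibility) and for the median of its chromosome (black lines). For *Eed* in 73M the neighbours were low too, with a median of -0.79, while for *Tet2* in 2M, 73M and 78A they were near 0 and the gene lay below all of them.

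The comparison of DEX with VEH columns asked, within each leukemia, how the 10 genes differed between its 2 libraries. *Kdm6b*, 1 of the 10 genes, passed the threshold and was lower in the DEX columns. Over all genes tested, 13.0% were called, 6.79% lower and 6.22% higher, so 1 of 10 is near the background. The median log2 fold change of the 10 genes was -0.07 against 0.00 over all genes tested, and 8 of the 10 were below 0 against 49.1% of all genes. That count was 5 of 10 with a term for libraries with ribosomal RNA counts and 4 of 10 in the 4 leukemias with no such library. All log2 fold changes and adjusted p-values here come from edgeR with the leukemia as a block, adjusted over all genes tested.

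*Kdm6b* (ENSMUSG00000018476, chromosome 11, 69398508 to 69413675, minus strand) encodes a lysine 27 demethylase that is induced by inflammatory signals in myeloid cells. It was at 1.34 to 7.43 FPKM in the VEH libraries (median 3.94) and at 1.24 to 5.96 in the DEX libraries (median 2.56). The DEX library was lower in 8 of 9 leukemias, and 15.2% of all genes tested were lower in at least 8. The fall was largest in 73M (7.43 to 2.97 FPKM), JW81 (3.94 to 1.87) and 2M (6.79 to 3.30). It was smaller in 8633 (3.03 to 1.93), 78A (3.77 to 2.56) and 73A (5.79 to 4.67). The 2 libraries were nearly alike in 20M (6.18 and 5.96) and JW14 (1.34 and 1.24), and only 5C was higher in DEX (1.36 and 1.49). The ranges of the 2 groups overlapped, since leukemias differed by 4.71-fold. The log2 fold change was -0.52 ± 0.14 (SE), a fold of 0.696, with an adjusted p of 0.0330.

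The log2 fold change of *Kdm6b* was -0.44 with a term for libraries with ribosomal RNA counts (adjusted p = 0.123), when 4.10% of all genes were called. It was -0.60 (0.0433) in the 4 leukemias with no such library, when 4.22% were called, and -0.46 (0.255) in the 5 others, when 15 genes were. The call was also lost when 2M (adjusted p = 0.0829), 73A, 73M, 78A, 8633 or JW81 was left out, fits that called 716 to 1348 genes in place of 1475. The exact sign-flip test gave p = 0.0156, and after adjustment it called 0 of all genes tested (3305 had an unadjusted p under 0.05), so it says nothing about *Kdm6b* in particular. With DESeq2, which called 19.1% of all genes, the adjusted p was 0.00414. The direction was the same in all 20 alternatives, with log2 fold changes of -0.60 to -0.43.

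Of the marker genes of other marrow cells, 0 of 8 neutrophil, 0 of 7 erythroid and 0 of 1 B lineage genes tested passed the threshold (edgeR). Of 6 myeloid genes tested, 1 passed and was lower in DEX. Over all genes tested, 13.0% were called. The summed levels of these markers are given here without a test. The summed level of 8 neutrophil genes was 43.9 to 4504 FPKM in the VEH libraries and 20.4 to 2659 in the DEX libraries, and it was lower in DEX in 7 of 9 leukemias. The summed level of 11 myeloid genes was 13.6 to 568 and 10.1 to 328 FPKM, also lower in 7 of 9, as was that of the 12 T lineage genes (1 of 12 called), and *Itgax* and *Fcgr1* were under 1 FPKM throughout. JW14 had the lowest sum of neutrophil genes, at 43.9 (VEH) and 20.4 FPKM (DEX), and the lowest *Kdm6b*. The neutrophil sum and *Kdm6b* were both lower in DEX in JW81 (sum 1882 to 777 FPKM), 73M (2278 to 851), 73A (4504 to 2659) and 20M (1712 to 1212). The myeloid sum went from 133 to 33.6 FPKM in JW81, from 250 to 69.0 in 73M and from 114 to 196 in 78A. In 78A and 8633 the neutrophil sum was higher in DEX (1139 to 1573 and 405 to 633 FPKM), and *Kdm6b* was lower in DEX there too, with ratios of 0.679 and 0.637. In 2M, with 1 of the 3 largest falls of *Kdm6b*, the neutrophil sum was 1142 (VEH) and 1077 FPKM (DEX) and the myeloid sum 159 and 168. In 5C the neutrophil sum was lower in DEX (1214 to 922 FPKM) while *Kdm6b* was slightly higher. The erythroid sum was lower in DEX in 3 of 9 leukemias, among them 73M (769 to 102 FPKM) and 73A (207 to 55.8). The B lineage sum was lower in 5 of 9, including 73M (29.8 to 5.57 FPKM) and 73A (8.27 to 4.08). The part of these cells in the difference was not tested beyond these values. *Kdm6a*, the related demethylase on the X chromosome, exceeded *Kdm6b* in 18 of 18 libraries, by 1.71-fold to 14.2-fold. Its log2 fold change between DEX and VEH columns was 0.09 ± 0.044 (adjusted p = 0.173).

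*Dnmt3a* was next, with 7 of 9 leukemias lower in DEX. The DEX library was lower in 2M (12.2 to 8.31 FPKM), 73A (8.39 to 5.76), 73M (7.91 to 5.64), 78A (8.30 to 6.20), 20M (9.22 to 7.50), 8633 (12.9 to 10.9) and JW81 (9.74 to 8.40). It was higher in 5C (3.22 to 3.50) and JW14 (11.5 to 13.6). The log2 fold change was -0.22 ± 0.083 (SE), with an unadjusted p of 0.0213 and an adjusted p of 0.0961. It was -0.40 with an adjusted p of 0.0387 in the 4 leukemias with no library with ribosomal RNA counts, and -0.08 with 0.703 in the 5 others. With the term for such libraries the adjusted p was 0.205. It passed the threshold without 5C (0.0406) or without JW14 (0.0494).

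The 8 remaining genes did not pass the threshold in the model as designed or in any of its 20 alternatives. *Bmi1* was at -0.13 ± 0.068 (adjusted p = 0.204) and *Eed* at -0.11 ± 0.068 (0.260). *Ezh2* was at -0.08 ± 0.13 (0.705), *Ezh1* at -0.05 ± 0.071 (0.643), *Suz12* at -0.03 ± 0.055 (0.767) and *Tet2* at -0.03 ± 0.14 (0.906). *Asxl1* was at 0.05 ± 0.057 (0.558) and *Dnmt1* at 0.05 ± 0.057 (0.605). The following intervals are of 2 SE in the fit to 9 leukemias. For *Ezh2* the DEX to VEH fold lay between 0.793 and 1.13, for *Suz12* between 0.909 and 1.06, for *Dnmt1* between 0.954 and 1.12 and for *Tet2* between 0.805 and 1.19. The log2 fold change of *Tet2* was 0.35 in the 4 leukemias with no library with ribosomal RNA counts and -0.33 in the 5 others, so its value varied beyond that interval with the leukemias fitted. The signs of *Ezh2*, *Suz12* and *Tet2* turned positive with the term for libraries with ribosomal RNA counts and also without 73M.

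**Figure D3:**
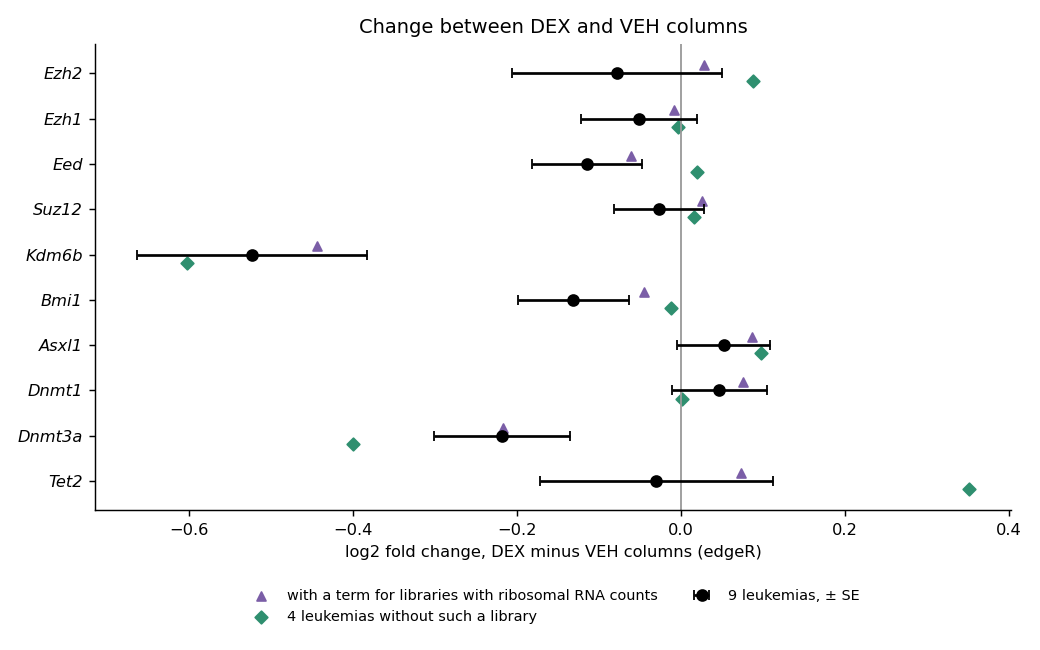
Log2 fold change of DEX against VEH columns for each of the 10 genes (x axis) in 9 leukemias (black circles, bars ± SE), with a term for libraries with ribosomal RNA counts (purple triangles) and in the 4 leukemias with no such library (green diamonds). *Kdm6b* was at -0.52, -0.44 and -0.60, while the 3 values of *Ezh2*, *Eed*, *Suz12* and *Tet2* fell on both sides of 0.

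The 7 lists of polycomb and DNA methylation genes held 61 genes, the 10 above included, of which 60 were tested. The DEX columns differed in 11 of these, *Kdm6b* and 10 others (18.3%, against 13.0% of all genes tested), 3 higher and 8 lower. The median log2 fold change over the 60 was -0.03. Of 11 PRC2 genes, 1 fell, *Mtf2*, an accessory subunit that recruits PRC2 to CpG islands, from 55.9 ± 34.6 to 36.9 ± 20.1 FPKM (SD, n = 9), with a log2 fold change of -0.48 ± 0.097 (SE, adjusted p = 0.0113).

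Of 21 PRC1 genes tested, 5 were called, 1 higher and 4 lower. *Phc1*, a polyhomeotic subunit, rose by 0.45 ± 0.090 on the log2 scale (adjusted p = 0.0102), from 3.62 ± 1.54 to 4.99 ± 2.60 FPKM, and was higher in 8 of 9 leukemias. *Cbx2*, a chromodomain subunit, had a log2 fold change of -0.58 ± 0.13 (0.0136), from 8.74 ± 2.39 to 6.11 ± 2.93 FPKM. *Bcor*, a corepressor, was lower in 9 of 9 leukemias with -0.52 ± 0.11 (0.0146), from 13.6 ± 3.19 to 9.40 ± 3.38 FPKM. The other calls were *Pcgf5* (-0.30, 0.0235) and *Kdm2b* (-0.26, 0.0245), both lower, named here after their values were seen.

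*Foxk2* was the 1 call of 9 PR-DUB genes (-0.23 ± 0.060, adjusted p = 0.0299), and *Tet3* that of 4 DNA demethylation genes (-0.29 ± 0.085, 0.0434). *Kdm6b* was that of 2 demethylase genes. None of the 5 DNA methylation genes passed. Of 8 genes for readers of methylated CpG, *Zbtb38* (0.22 ± 0.066, 0.0453) and *Mbd1* (0.15 ± 0.045, 0.0480) rose. With the term for libraries with ribosomal RNA counts, 3 of the 11 calls remained, *Mtf2*, *Cbx2* and *Phc1*, when 4.10% of all genes were called. In the 4 leukemias with no such library 4 of the 11 remained, *Cbx2*, *Bcor*, *Kdm6b* and *Tet3*, when 4.22% were called. The lost calls kept their sign there: *Mtf2* (-0.43), *Kdm2b* (-0.33), *Pcgf5* (-0.25), *Foxk2* (-0.21), *Mbd1* (0.13), *Zbtb38* (0.27) and *Phc1* (0.37). *Mtf2*, *Cbx2*, *Phc1* and *Bcor* kept their calls whichever leukemia was left out. The others lost theirs in some of these 9 fits, *Pcgf5* in 3, *Kdm2b* in 4, *Foxk2* and *Kdm6b* in 6, *Tet3* in 7 and *Mbd1* and *Zbtb38* in 8.

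**Figure D4:**
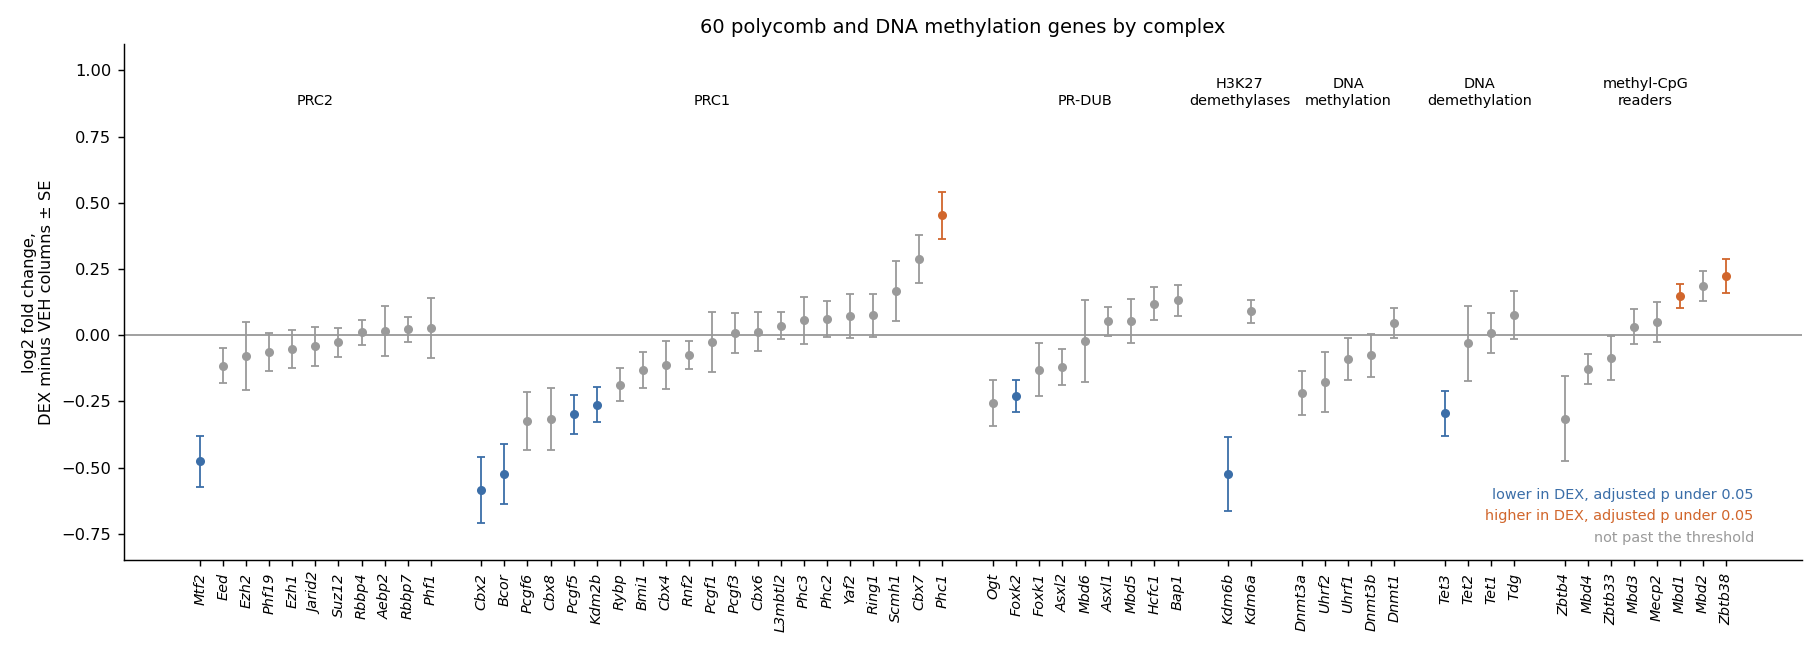
Log2 fold change (± SE) of DEX against VEH columns for the 60 tested genes of 7 polycomb and DNA methylation lists, ordered by value within each list. Blue points are lower and orange points higher in DEX at an adjusted p of 0.05 (edgeR, leukemia as a block), and grey points did not pass: 8 were lower and 3 higher.

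Of the loci known as targets of these systems, most were at or near the floor and a few were not. The 11 *Hoxa* genes listed were at 0.106 FPKM or less in all 18 libraries and *Meis1* at 0.113 or less. Of 8 germline genes that DNA methylation silences in somatic tissue, 7 were at 0.147 FPKM or less and *Sycp1* was at 0.887 (78A) to 2.53 FPKM (73A). *Cdkn2a*, a cell cycle inhibitor locus bound by polycomb proteins, was at 0.306 (2M) to 2.29 FPKM (73A) in 8 leukemias and at 12.9 in 8633. Its neighbour *Cdkn2b*, under the filter of 1 FPKM, was at 0.0842 (2M) to 1.57 FPKM (8633). The *Cdkn2a* level did not pass the threshold between DEX and VEH columns (log2 fold change 0.13 ± 0.19, adjusted p = 0.660). Of 16 proliferation genes, *Aurkb* (0.32, 0.00627) and *Ccnb1* (0.26, 0.0311) were higher and *Mcm4* (-0.33, 0.0323) lower in DEX, 3 calls of 16 beside 13.0% of all genes tested.

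Across the 9 leukemias, the genes whose levels were most like those of each regulator were named by Pearson's r of log2(FPKM + 1), as a description over 9 points. *Kdm6b* was most like *Mon2* (r = 0.989), *Dvl3* (0.986) and *Tmem156* (0.979), and *Dnmt1* most like *Cks1b* (0.987) and *Lsm2* (0.977). *Asxl1* was nearest to *Ptpn23* (0.981), *F630028O10Rik* (0.975) and *Gm6104* (0.974), and *Suz12* to *Tbc1d15* (0.977), *Gm9392* (0.954) and *Setd7* (0.950). *Ezh2* was nearest to 3 zinc finger genes, *Zfp329* (0.962), *Zfp189* (0.945) and *Zfp429* (0.933). For *Dnmt3a* they were *Fam53c* (0.949), *Arf3* (0.935) and *Abcb9* (0.929), and for *Eed*, *Cptp* (0.941), *Fadd* (0.921) and *Tmed1* (0.914). *Bmi1* was nearest to *Dtx3* (0.941), *Arhgap10* (0.926) and *Dtx2* (0.901), *Ezh1* to *Wtap* (0.938), *Fam172a* (0.928) and *Slc25a20* (0.911), and *Tet2* to *Rab18* (0.921), *Arsk* (0.913) and *Wwox* (0.911). None of the 10 genes was among the 3 nearest of another. Between them, *Kdm6b* and *Asxl1* were most alike by r (r = 0.845, Spearman's rho = 0.850). The lowest r was that of *Kdm6b* and *Dnmt1* (r = -0.686, rho = -0.683) and the lowest rho that of *Ezh1* and *Asxl1* (r = -0.464, rho = -0.717). The 9 points share their libraries and depths.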

How the data were processed

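Poly(A) RNA of leukemic bone marrow was sequenced as paired ends from TruSeq libraries, a kit that does not mark strand. The authors aligned reads with Bowtie 2 to mm10 and ran RSEM, and deposited the resulting expected counts for each gene, although the file is named for FPKM. RSEM's version and the annotation are not given in the sources used here. In a library, 68.3% to 74.5% of nonzero values were whole.

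FPKM were computed here from merged exon lengths of GENCODE M21 (37693 of 39017 genes) and library totals. For fits, counts were rounded, genes with a mean of 1 FPKM or more kept (11339), scaled by TMM and tested with the quasi-likelihood test of edgeR 4.0.16 (R 4.3.3), with the leukemia as a block since both libraries come from it; r across genes between them was 0.927 to 0.990. DESeq2 1.42.0 was an alternative. Adjusted p-values use the Benjamini-Hochberg method at 0.05. The SE of a log2 fold change was taken from the F statistic. The exact tests over 512 sign patterns used Python 3.11.15 with scipy 1.17.1. On simulated counts for the DEX minus VEH comparison over 11339 genes with 200 genes changed 2-fold, edgeR recovered 97.5%, and 7.58% of its calls were false. In the comparison between leukemias it recovered 47.0% of 2-fold and 91.0% of 4-fold changes.

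The DEX columns of 2M, 73A and 4638 end differently from the titles of their samples and were matched by leukemia. The study states RNA data for 9 leukemias while the table has 10; its overview of mutations lists the 9 used here but not 4638, although it lists a name with the same digits in another order, so 4638 entered 1 alternative only. Nothing says whether the 2 libraries of a leukemia come from separate mice, so p-values measure the spread between these libraries. Floors cover counting error only.

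Exons of 7 of the 10 genes overlap an exon of a gene on the other strand over 43 to 286 bases, at most 6.82% of their exon length, so reads there cannot be assigned to a strand. The 10 genes, the gene lists and the tests were chosen with earlier results of these data known. Named genes were the 10, up to 3 called genes per list with the smallest p, and for each of the 10 the 3 genes with the highest r; others were named after their values were seen. A gene that this rule names for *Dnmt1* is not reported here, nor is 1 allele of the donors. Alternatives were other scaling, no filter on low values, DESeq2, no block, each leukemia left out, 4638 added, a term for libraries with ribosomal RNA counts, leukemias with or without such a library alone, genes of at least 200 bases, and pseudocounts of 1 and 0.1. The fit to leukemias with such a library was added after seeing the data, as were the term and DESeq2 for the lists.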

Additional observations from a re-analysis of the deposited data

Results flagged for a closer look

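In 2 of the 22 sets of 9 leukemia values compared, 1 leukemia was far from the others by Dixon's criterion, which sets the gap to the nearest value against the whole range, and chance flags about 1.1 of 22. For the level of *Eed*, log2(FPKM + 1), the gap of 73M was 0.545 of the range. For the level of *Dnmt3a*, the gap of 5C was 0.503 of the range.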

How the results depend on the processing

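Without the replicate block, 8 genes were called in place of 1475, none (0) of the 10 and at an adjusted p of 0.910 for *Kdm6b*. The term for libraries with ribosomal RNA counts left 465 calls, 0 of the 10 genes and 3 of the listed genes, and turned the log2 fold changes of *Ezh2* (0.028), *Suz12* (0.025) and *Tet2* (0.073). In the 4 leukemias with no such library 476 genes were called, 2 of the 10 and 5 of the listed genes; *Ezh2* (0.087), *Eed* (0.019), *Suz12* (0.015) and *Tet2* (0.35) turned positive, the change of *Ezh1* minus *Ezh2* was -0.079, and their level difference of 2.43 had an exact p of 0.125, the lowest that 4 leukemias allow. In the 5 leukemias with such a library 15 genes were called, 0 of the 10 and 0 of the listed genes. The exact sign-flip tests called 0 of all genes, and so 0 of the 10, with either pseudocount, and *Dnmt1* was at -0.0027 and -0.0029. The cause was not tested. Leaving out 1 leukemia gave 654 (without 20M) to 2041 calls (without 5C), 0 (without 2M, 73A, 73M, 78A, 8633 or JW81) to 2 of the 10 genes (without 5C or JW14) and 4 (without 2M or 73A) to 14 of the listed genes (without 5C). The listed genes numbered 5 without 20M or 73M and 6 without 8633. Values ranged from -0.022 (without 73M) to 0.10 for the change of *Ezh1* minus *Ezh2*, -0.14 to 0.028 for *Ezh2*, -0.056 to 0.0016 for *Suz12* and -0.12 to 0.081 for *Tet2*, and all 3 genes were above 0 without 73M. DESeq2 called 2169 genes (19.1%), 1 of the 10 and 16 of the listed genes. Scaling by relative log expression (1485 calls), adding 4638 (1442), dropping the filter (1803, over more genes) and keeping genes of at least 200 bases (1552) gave 1 call among the 10.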

Other observations

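Leukemia 4638, left out of the comparisons, had the highest *Kdm6b* and *Tet2* of the 10 leukemias in the table. *Kdm6b* was at 11.6 (VEH) and 10.5 FPKM (DEX), and *Tet2* at 5.87 and 4.42. *Ezh2* was at 20.5 and 20.3 FPKM, *Dnmt1* at 73.2 and 57.8 and *Dnmt3a* at 5.63 and 4.04. The summed neutrophil genes were at 7991 and 4702 FPKM, above every library of the 9 other leukemias, and *Cdkn2a* was at 14.2 and 17.8 FPKM.

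*Scmh1*, a PRC1-associated gene, was at 0.0454 FPKM or less in both libraries of 8633, JW14 and JW81 and at 0.146 FPKM in 5C. It was at 1.17 (78A) to 3.65 FPKM (73A) in the 5 other leukemias.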
